A study of Rattus norvegicus with 8 samples.

Results

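The interferon-stimulated antiviral genes described here are Bst2, Mx1, Mx2, Oas1a, Rsad2, Isg15, Usp18, Irf7 and Stat2, read in rat liver after a high-fat or a normal diet. They were taken by name: every non-control probe whose gene name equals one of these 9 symbols was used. That gave 18 probes in 21 spots, among 46883 probes under 25512 gene names on the array. All 18 probes were well above background on all 8 arrays, so all 9 genes were tested and none depended on a filter for dim probes. The high-fat group held 4 liver samples of male Sprague Dawley rats, an outbred laboratory strain, fed freely on a diet with 60% fat for 12 weeks. The control group held 4 liver samples of male rats of the same strain on a normal diet for 12 weeks. The labels give a weight of 180 to 200 g for both groups and no ages, and no group carries an engineered allele or a drug. Nothing in the labels settles whether every sample is its own animal, and p-values cover the spread from sample to sample, part of which may be technical.

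Type I interferons are secreted when a cell senses foreign nucleic acid. They bind a receptor on the same or a neighbouring cell, and the kinases on that receptor activate a transcription factor complex that includes Stat2 and Irf9 and binds the interferon-stimulated response element in front of target genes. The products of those genes block viral entry, replication and release, and several of them, Irf7, Stat2 and Usp18 among them, feed back on the pathway itself. In liver, hepatocytes and resident macrophages (Kupffer cells) both carry the receptor, and a low tonic expression of these genes is usual without infection.

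The response element carries the sequence by which the pathway recognises its targets, so the promoters that hold it are shown first. RefSeq promoter windows (GRCr8, 250 bases before to 50 after the gene's start) were at hand for 6 of the 9 genes, namely Bst2, Mx1, Oas1a, Rsad2, Irf7 and Stat2. Searched on both strands as GAAA, any 2 bases and again GAAA, the element lay in 4 of these 6 windows. It lay in 3.92% of all 33469 windows of the table. The 60 bases around each match are printed 5′ to 3′ on the gene's strand, with the matched bases in capitals.
Bst2, chr16:18255062-18255121, minus strand, bases 154 to 95 before the start: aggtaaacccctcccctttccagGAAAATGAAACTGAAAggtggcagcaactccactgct
Oas1a, chr12:41330402-41330461, plus strand, bases 64 to 5 before the start: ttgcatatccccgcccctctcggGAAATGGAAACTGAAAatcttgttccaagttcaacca
Rsad2, chr6:48788234-48788293, minus strand, bases 173 to 114 before the start: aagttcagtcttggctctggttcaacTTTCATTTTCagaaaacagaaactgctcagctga
Irf7, chr1:205800059-205800118, minus strand, bases 95 to 36 before the start: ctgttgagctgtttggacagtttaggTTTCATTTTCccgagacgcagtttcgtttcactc
Bst2 and Oas1a each held 2 overlapping matches on the gene's own strand. Rsad2 and Irf7 each held 1 match on the opposite strand, so that its letters appear there as the reverse complement. No match for these letters lay in the windows of Mx1 and Stat2. The gamma interferon activation site, searched as TTC, any 3 bases and GAA, which reads the same on both strands, lay in the windows of Bst2 and Oas1a, 2 of the 6, and in 8.87% of all windows. These matches describe the letters only, since the arrays measured no binding.

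What the cRNA was hybridised to is shown by 4 of the 60-base probes, from genes with wide differences between the diets, each open in at least 1 reading frame. For Bst2 the dimmer probe is shown. All 4 run 5′ to 3′ as in the files.
Bst2, other probe, chromosome 16: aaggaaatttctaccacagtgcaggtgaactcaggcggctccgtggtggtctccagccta
Isg15, brightest probe, chromosome 5: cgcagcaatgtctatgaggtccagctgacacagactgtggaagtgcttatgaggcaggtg
Usp18, brightest probe, unplaced sequence of chromosome 4: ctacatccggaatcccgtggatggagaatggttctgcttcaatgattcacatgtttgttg
Irf7, brightest probe, chromosome 1: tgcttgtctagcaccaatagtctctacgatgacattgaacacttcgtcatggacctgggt

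Of the probes on an array, between 50.4% (control replicate 1) and 71.9% (control replicate 4) were well above background, with high-fat replicate 1 the second dimmest at 56.3%. The number of arrays limits the precision. Hepatocyte markers were among the brightest probes, with Fgb, a fibrinogen chain, between 6.34 and 6.82 on the normalized log2 scale, where 0 is the 75th percentile of the probes detected on all arrays. At an adjusted p under 0.05 (limma, Benjamini-Hochberg over all 31535 tested probes), 163 of 18587 genes (0.877%) changed on the high-fat diet, 98 falling and 65 (0.35%) rising. High-fat replicate 1 stood apart from the other high-fat arrays in the genes described here, and results are given with and without it. It did so in lists of related genes too. Cd207, a dendritic cell lectin, was not well above background on any of the 4 high-fat arrays. It passed the threshold with high-fat replicate 1 included. The place of this array in Cd207 therefore cannot tell how like its group it is.

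Bst2, which codes for tetherin, the membrane protein that holds budding virions at the cell surface, fell on the high-fat diet. It was the only one of the 9 genes past the threshold, against 0.527% of all tested genes called lower. In the other 8 genes the brightest probe also had a lower mean on the high-fat diet, but none passed, and 49.4% of all genes had a negative change. The median log2 change of the 9 genes was -0.95, and that of all tested genes was 0.00. In bulk liver, fewer cells that express a gene and less of its RNA per cell cannot be told apart.

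Normalized log2 intensities of Bst2 in control replicates 1 to 4 were 3.24, 3.15, 2.70 and 3.03. In high-fat replicates 1 to 4 they were 1.48, 0.44, -0.03 and 1.55. Every high-fat array lay below every control array, with replicates 2 and 3 the lowest. The means were 3.03 ± 0.24 (SD, n = 4) and 0.86 ± 0.78 (SD, n = 4). The log2 change was -2.17 (SE 0.36, 95% interval -2.98 to -1.35), a 4.49-fold lower level, with an adjusted p of 0.0406. This probe lies at chr16:18698676-18698735 on the minus strand of rn4, the build of the files' probe positions. The other probe of Bst2, which the files do not place, read 2.35, 2.19, 1.71 and 2.22 in controls and 0.98, -0.41, -0.87 and 0.82 on the high-fat diet. It ordered the arrays in much the same way, without overlap between the diets, with a log2 change of -1.99 (SE 0.41) and an adjusted p of 0.0701. Within the 2 rows of the slide, each with 2 arrays of each diet, the brightest probe differed by -2.23 and -2.10. With the slide row as a block the adjusted p was 0.0556, and with any 1 array other than high-fat replicate 1 left out it was 0.0593 to 0.108.

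**Figure D1:**
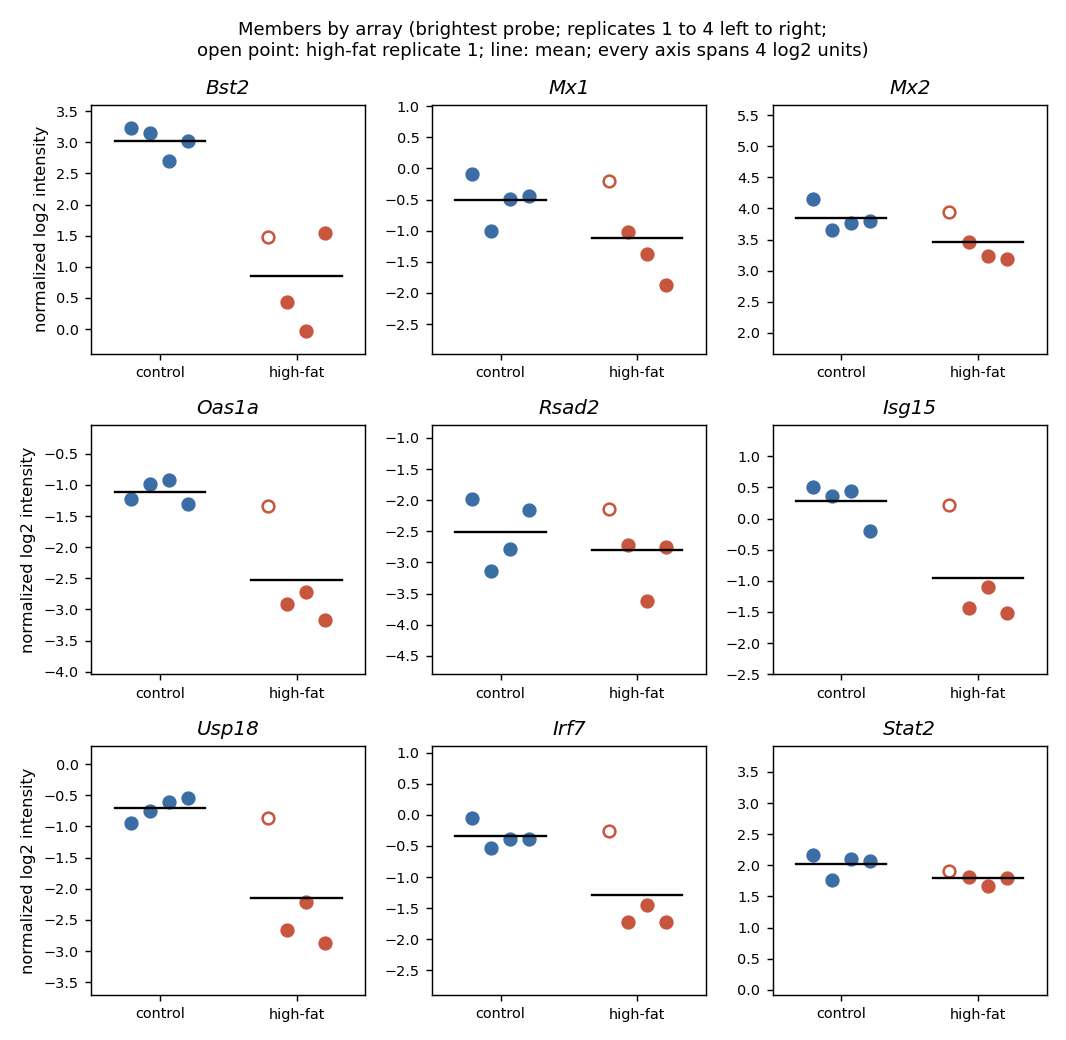
Normalized log2 intensity (y axis) of the brightest probe of each of the 9 genes on the 4 control (blue) and 4 high-fat (red) arrays, with the mean as a line and high-fat replicate 1 as an open point; every y axis spans 4 log2 units. The diets do not overlap in Bst2 and Oas1a, and high-fat replicate 1 lies at the level of the controls in most of the other genes.

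Oas1a is an oligoadenylate synthetase that activates the latent ribonuclease RNase L on sensing double-stranded RNA. Its only probe (chr12:36815068-36815127, plus strand) read -1.22, -0.99, -0.91 and -1.31 in controls and -1.34, -2.91, -2.71 and -3.17 on the high-fat diet. High-fat replicate 1 lay just under the lowest control array, and the other 3 lay well below it. The log2 change was -1.43 (SE 0.36), a 2.69-fold lower level, and did not pass (adjusted p = 0.121). By the brightest probe of each gene, Bst2 and Oas1a were thus the 2 of 9 genes with every high-fat array below every control array, as were 6.24% of all tested genes. Rat Oas1 genes form a cluster of close copies, and how far their transcripts share the signal of this probe was not tested.

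Mx1 and Mx2 code for dynamin-like GTPases that trap viral nucleocapsids. Mx1 (chr11:37438580-37438639, minus strand) read -0.08, -1.0, -0.49 and -0.44 in controls and -0.21, -1.02, -1.38 and -1.87 on the high-fat diet, a log2 change of -0.62 (SE 0.35, adjusted p = 0.454). Its other probe gave -0.72 (SE 0.42, adjusted p = 0.475). Control replicate 2 was as low as high-fat replicate 2, and the groups overlapped at both probes. The brightest probe of Mx2 (chr11:37572657-37572716, plus strand) read 4.15, 3.66, 3.77 and 3.79 in controls and 3.95, 3.46, 3.24 and 3.18 on the high-fat diet. Its log2 change was -0.39 (SE 0.20, adjusted p = 0.408), while the other Mx2 probe gave -1.20 (SE 0.43, adjusted p = 0.231). That other probe read -2.22, -2.55, -2.44 and -2.28 in controls and -2.25, -3.81, -3.65 and -4.59 on the high-fat diet. The probes of Mx2 had the same order of groups and differed in the size of the change, and the reason was not tested. At both, high-fat replicate 1 lay among the controls.

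Rsad2 codes for viperin, a radical SAM enzyme that makes a chain-terminating nucleotide. Its brightest probe (chr6:44100787-44100846, minus strand) read -1.97, -3.13, -2.79 and -2.16 in controls and -2.15, -2.71, -3.62 and -2.75 on the high-fat diet, a log2 change of -0.29 (SE 0.36, adjusted p = 0.758). The other probe read -4.70, -5.19, -5.35 and -4.61 in controls and -4.41, -4.29, -4.73 and -4.53 on the high-fat diet, a log2 change of 0.47 (SE 0.20, adjusted p = 0.307). The probes of Rsad2 had opposite signs, so its direction is not settled by these arrays. The dimmer Rsad2 probe was the 1 of 18 with a higher mean on the high-fat diet. Of the 18 probes 1, in Bst2, passed the threshold, against 0.907% of all tested probes.

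Isg15 and Usp18 belong to the ISG15 conjugation system. Isg15 is a ubiquitin-like protein that is joined to other proteins during an antiviral response, and Usp18 removes it and also restrains signalling at the interferon receptor. Isg15 (chr5:173034674-173034733, minus strand) read 0.51, 0.36, 0.44 and -0.20 in controls and 0.21, -1.44, -1.10 and -1.52 on the high-fat diet. High-fat replicate 1 lay between control replicates, and the other 3 lay below all controls. The log2 change of Isg15 was -1.24 (SE 0.38, adjusted p = 0.175), and its other probe gave -1.27 (SE 0.35, adjusted p = 0.147). Usp18 was read by 3 probes with log2 changes of -1.37, -1.44 and -1.51 and adjusted p of 0.199, 0.144 and 0.113. The brightest Usp18 probe read -0.94, -0.75, -0.61 and -0.54 in controls and -0.87, -2.66, -2.21 and -2.87 on the high-fat diet. At this probe the pattern was that of Isg15, with high-fat replicate 1 inside the range of the controls. At the Usp18 probe with a change of -1.51 the diets did not overlap. There high-fat replicate 1, at -1.05, lay under the lowest control, at -0.89.

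Irf7 and Stat2 are the transcription factors of the group. Irf7 drives the later, amplifying wave of interferon alpha genes, and Stat2 is the subunit that activates transcription in the complex with Irf9. Irf7 (chr1:201456889-201456948, minus strand) read -0.06, -0.53, -0.39 and -0.38 in controls and -0.27, -1.72, -1.44 and -1.73 on the high-fat diet. Its log2 change was -0.95 (SE 0.32, adjusted p = 0.213). The dimmer Irf7 probe gave -0.40 (SE 0.31, adjusted p = 0.60), with high-fat replicate 1 at -2.12, above all 4 controls, and the other 3 between -3.50 and -3.45. Stat2 (chr7:1580592-1580651, plus strand) read 2.16, 1.76, 2.10 and 2.06 in controls and 1.90, 1.81, 1.67 and 1.80 on the high-fat diet. Its log2 change was -0.23 (SE 0.13, adjusted p = 0.477), the smallest of the 9, and its other probe gave -0.38 (SE 0.14, adjusted p = 0.237) without overlap between the diets. High-fat replicate 1 did not stand apart in Stat2.

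**Figure D2:**
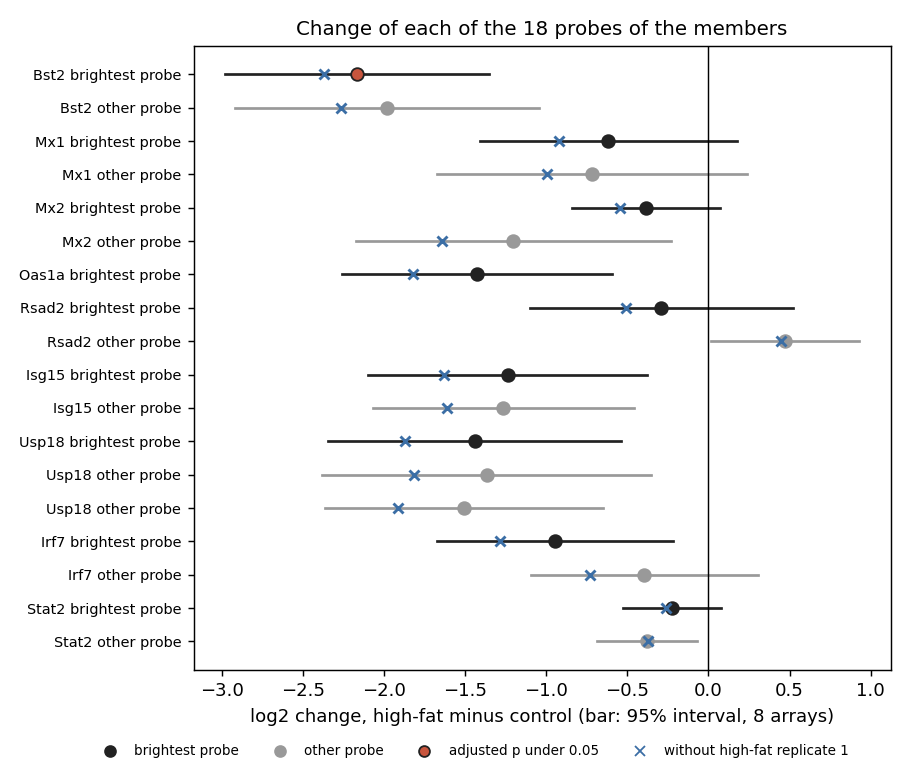
Log2 change, high-fat minus control, of each of the 18 probes (x axis), with its 95% interval over 8 arrays; black points are brightest probes, grey points other probes, red the 1 probe past the threshold, and blue crosses the change without high-fat replicate 1. Of the 18 probes 17 lie below 0, from -2.17 in Bst2 to -0.23 in Stat2, and the dimmer Rsad2 probe lies at 0.47.

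The difference between high-fat replicate 1 and the other high-fat arrays ran through the group. High-fat replicate 1 had the highest high-fat value in 8 of the 9 genes (Bst2 was the exception, with replicate 4 at 1.55). It lay within or above the control range in 7. Shares of all tested genes are not given for these counts, so they do not show what is particular to the 9 genes. In 7 of the 9 genes, all but Rsad2 and Stat2, high-fat replicates 2 to 4 were all below the lowest control array, as in 8.92% of all tested genes. Without high-fat replicate 1, Bst2, Oas1a, Isg15, Usp18 and Irf7 were below the threshold, 5 of 9 genes against 0.339% of all genes called lower. Their log2 changes were then -2.37, -1.82, -1.63, -1.87 and -1.29, with adjusted p of 0.0483, 0.0228, 0.0397, 0.0241 and 0.0397. Mx1, Mx2, Rsad2 and Stat2 did not pass without it either, with adjusted p from 0.171 to 0.527. That array was named for its level in these same genes, so the counts without it describe the other 7 arrays and are no independent test. Without control replicate 1 and high-fat replicate 1, the 2 dimmest arrays, Oas1a and Usp18 passed (adjusted p = 0.0475 and 0.0495), and Bst2 did not (0.102), against 0.0484% of all genes called lower. With any other single array left out, none of the 9 genes passed in limma, with 5 or 6 of them lower at an unadjusted p under 0.05, against 6.66% to 8.11% of all genes.

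The level of the whole group on an array was taken as the mean, over the 9 brightest probes, of the normalized log2 intensity minus that probe's mean over the 8 arrays. It was 0.68, 0.32, 0.47 and 0.47 in control replicates 1 to 4 and 0.34, -0.71, -0.80 and -0.78 in high-fat replicates 1 to 4. High-fat replicate 1 lay just above the lowest control, and the other 3 high-fat arrays lay within 0.0933 of each other. The difference, high-fat minus control, was -0.97, a 1.96-fold lower geometric mean, and -0.82 with Bst2 left out. Without high-fat replicate 1 it was -1.25. It was -0.69 within the first row of the slide, which holds high-fat replicate 1, and -1.26 within the second. No p is given for this level, since the genes were chosen with earlier results of these data known.

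**Figure D3:**
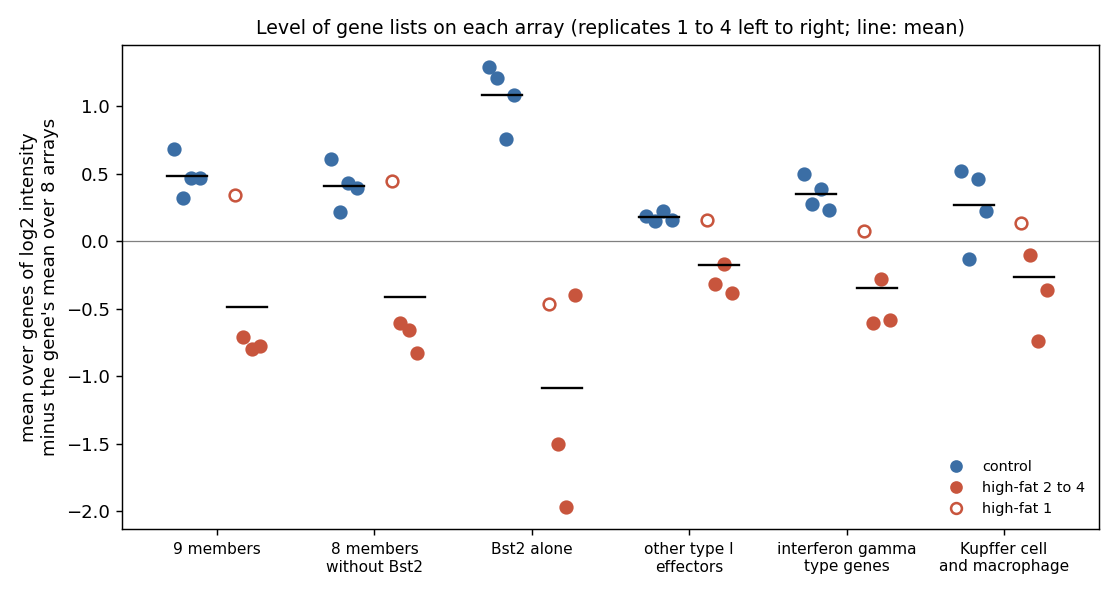
Mean over the genes of a list of log2 intensity minus the gene's mean over 8 arrays (y axis), for the 9 members, the 8 members without Bst2, Bst2 alone and 3 other lists, on each control (blue) and high-fat (red; replicate 1 open) array, with means as lines. High-fat replicate 1 lies at 0.34 for the members, near the controls, and at the level of high-fat replicate 4 for Bst2 alone.

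Across the 8 arrays, pairs of the 9 genes had Pearson correlations from 0.39 to 0.98 with a median of 0.78 over 36 pairs, where the mean over all pairs of tested genes was 0.00. With each diet's mean removed the median was 0.67. The points share arrays and scaling, so these values are descriptions over 8 arrays. Oas1a and Usp18 had 0.98, Oas1a and Isg15 0.98, Isg15 and Irf7 0.96, and Mx1 and Mx2 0.96. With diet means removed, the correlation of Bst2 fell with every other member except Rsad2. It was then 0.13 with Mx1, 0.21 with Usp18, 0.27 with Oas1a and 0.29 with Stat2. With Isg15 it was 0.32, with Mx2 0.37 and with Irf7 0.40. Between Bst2 and Rsad2 it rose from 0.51 to 0.63. Rsad2 and Stat2 had 0.81 with diet means removed, and each had at most 0.33 with Oas1a and Usp18.

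Of all other named genes, Ftsjd2 had the highest correlation over the 8 arrays with the level of the group (0.99, and 0.98 with diet means removed). Zmym4 (0.98), Aup1 (0.98), Oasl (0.97), Plac8 (0.97) and Dusp2 (0.97) followed. Ftsjd2 read between 2.27 and 2.32 in the controls, 2.33 in high-fat replicate 1 and 1.91 to 1.95 in the other high-fat arrays. The genes most like Bst2 were others, namely Nop16 (0.97), RT1-DMa (0.96), Cpt1b (0.95), Bex1 (0.95), Bet1l (0.95) and Mgst2 (0.95). RT1-DMa and Cpt1b were among the genes that fell, with log2 changes of -0.86 (adjusted p = 0.0264) and -2.64 (adjusted p = 0.0204). The neighbours were taken from the tested genes with a gene symbol, leaving out those known only by an identifier, after ranking by this correlation. No test goes with them.

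Of the rest of the pathway, the ligands could hardly be read. Of 5 interferon genes on the array, Ifna1, Ifnb1, Ifng and Ifnk were well above background on at most 2 arrays and were not tested, and Ifna4 had a log2 change of -0.68 (SE 0.48, adjusted p = 0.561). None of the 5 receptor genes passed (median log2 change -0.10, with 1 lower at an unadjusted p under 0.05): Il10rb, a shared subunit of the lambda interferon receptor, had -0.51 (adjusted p = 0.173), Ifnar1 of the type I receptor 0.13 and Ifngr1 of the gamma receptor -0.02. The other probe of Il10rb had a log2 change of the opposite sign, 0.078. Receptor genes and ligands gave no call in either direction.

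None of the 13 signal transducers and interferon regulatory factors passed either, with a median of -0.15 and 1 gene lower at an unadjusted p under 0.05. Irf9, the DNA-binding partner of Stat2, had a log2 change of -0.21 (SE 0.17, adjusted p = 0.607). Irf1, a factor of the gamma response, had -0.23, and Irf3, the constitutive factor downstream of nucleic acid sensors, 0.09. The smallest p was that of Irf5 (-0.72, adjusted p = 0.216), a factor of myeloid cells, followed by Pias1 (0.59, adjusted p = 0.324), an inhibitor of cytokine signalling, and the kinase Jak2 (-0.32, adjusted p = 0.410). The log2 change was 0.020 by the other probe of Jak2, 1.42 by that of Pias1 and -0.49 by that of Irf5. Of 12 sensor genes none passed (median -0.18), and 0 had an unadjusted p under 0.05. Tlr7, an endosomal RNA receptor, had 0.35, Dhx58, a helicase of the RIG-I family, -0.38, and Mavs, the adaptor of those helicases, 0.28.

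The other type I effectors, 60 genes on the array of which 55 were tested, gave no call at an adjusted p under 0.05 with 8 arrays. At an unadjusted p under 0.05, 15 of them were lower and 1 was higher, where 8.4% of all genes were lower; of the 9 members 5 were. Their median log2 change was -0.30, and 47 of 55 were negative. The smallest p was that of Oasl, an oligoadenylate synthetase-like gene, which read -2.93, -3.01, -2.80 and -3.17 in controls and -3.33, -4.33, -4.24 and -4.40 on the high-fat diet. Its log2 change was -1.10 (SE 0.24, adjusted p = 0.0794). Slfn3, a schlafen gene, had -1.23 (adjusted p = 0.0947) and Sp100, a nuclear body protein, -0.48 (adjusted p = 0.119). In 23 of the 55 genes high-fat replicates 2 to 4 were all below every control, as in 8.92% of all genes. Without high-fat replicate 1, 4 of the 55 were below the threshold, against 0.339% of all genes called lower: Oasl (-1.35, adjusted p = 0.0241), Oas1k (-1.65, 0.0397), Oas1i (-1.49, 0.0465) and Ifi27l2b (-1.50, 0.0483). The last 3 are named after their values were seen, and the limit given above for counts without this array holds here as well. The level of this list in high-fat replicate 1 was 0.16, within the control range of 0.15 to 0.22, and in the other high-fat arrays -0.38 to -0.17. The response element lay in 26 of 56 promoter windows of these genes, 46.4%. It lay in 13 of 28 windows of the interferon gamma type genes described below, also 46.4%.

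**Figure D4:**
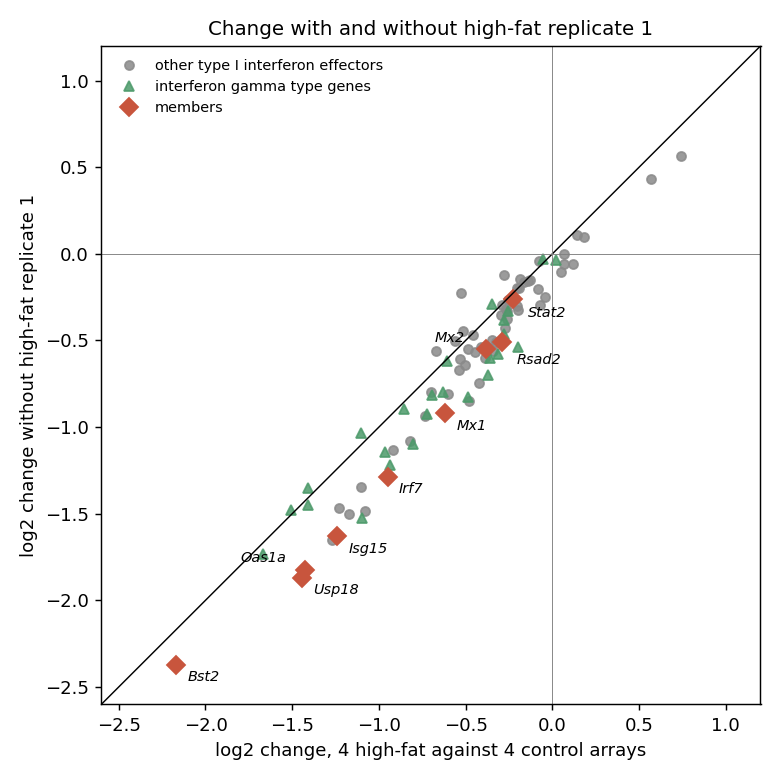
Log2 change of the 9 members (diamonds), 55 other type I effectors (circles) and 25 interferon gamma type genes (triangles) over 8 arrays (x axis) and without high-fat replicate 1 (y axis); the line marks equal values. All 9 members, 47 of the effectors and 20 of the gamma type genes lie below the line, and Bst2 lies at -2.17 and -2.37.

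Many of the genes of the interferon gamma type serve antigen presentation and T cell recruitment. Among the 25 tested, 3 fell: Ciita (-0.86, adjusted p = 0.0344), RT1-Da (-1.51, 0.0413) and RT1-Ba (-1.41, 0.0490). Ciita is the master regulator of class II genes, and RT1-Da and RT1-Ba are class II chains. Over all genes 0.527% were called lower. At an unadjusted p under 0.05, 12 of the 25 were lower and 0 higher, where 8.4% of all genes were lower. In 8 of the 25 every high-fat array lay below every control array, as in 6.24% of all genes. Of the list 24 had a negative change, with a median of -0.63. RT1-Da read 1.66, 1.62, 0.97 and 0.80 in controls and -0.33, -0.47, 0.23 and -0.40 on the high-fat diet. In these 3 genes, called with high-fat replicate 1 included, that array lay below every control. The diets did not overlap in any of the 163 called genes, so its place there tells nothing more about this array. Over the whole list the level in high-fat replicate 1 was 0.077, against -0.60 to -0.28 in the other high-fat arrays and 0.23 to 0.50 in controls. Without it none of the 25 passed, with RT1-Da at -1.48 (adjusted p = 0.0791).

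Markers of other cell types are given beside these values, for the whole lists. Over all tested genes, 8.4% were lower at an unadjusted p under 0.05 and 0.527% were called lower. All 12 Kupffer cell and macrophage markers had a negative change and none passed (median -0.28, with 4 lower at an unadjusted p under 0.05), with Marco at -2.38 (adjusted p = 0.144), Vsig4 at -0.78 (0.178) and Clec4f at -0.60 (0.181). Their mean level ran from -0.13 to 0.52 in controls and from -0.74 to 0.14 on the high-fat diet, where high-fat replicate 1 was the highest. Of 8 tested plasmacytoid dendritic cell markers 5 had a negative change and none passed. Their median was -0.22, with 2 lower at an unadjusted p under 0.05. Il3ra was at -0.62, Tcf4 at -0.62 and Tlr7, which is also on this list, at 0.35. The level of these markers ran from -0.02 to 0.28 in controls and from -0.30 to 0.07 on the high-fat diet. Siglech, which defines those cells in rodents, was well above background on 1 of 8 arrays and was not tested.
Of 16 T, NK and B cell markers Cd3g fell (-1.44, adjusted p = 0.0417), with Cd3d at -0.69 and Cd247 at -1.20. Over the 16 the median was -0.26, 11 were negative, and 5 were lower and 0 higher at an unadjusted p under 0.05. Of all tested genes 8.4% were lower at that p, and 0.527% were called lower. Their level ran from 0.00 to 0.37 in controls and from -0.33 to 0.01 on the high-fat diet. Of 5 conventional dendritic cell markers Cd207 fell, at least 18.2-fold (adjusted p = 3.2e-04 in limma), and the list's median was -0.13. Cd207 met the filter through the control arrays alone, so its p rests on high-fat values that were not well above background. The level of this list ran from 0.04 to 0.62 in controls and from -0.82 to 0.15 on the high-fat diet. The difference in level rests largely on Cd207, with measured means of -3.72 in controls and -8.10 on the high-fat diet. Of the 5 markers 3 had a negative change.
None of the 8 hepatocyte markers (median -0.05, with Cps1 at 0.98), 5 neutrophil markers (0.15, and -0.084 without high-fat replicate 1), 7 sinusoidal endothelial markers (-0.18, with Lyve1 at 0.96) and 5 erythroid markers (1.12, with Alas2 at 1.43) passed. At an unadjusted p under 0.05, 1 hepatocyte, 2 endothelial and 4 erythroid markers were higher and 1 endothelial marker was lower. The share of all tested genes that were higher at that p is not given. The erythroid level ran from -1.09 to 0.15 in controls and from 0.39 to 0.51 on the high-fat diet. The part of these cell types in the values of Bst2 and the other 8 genes was not tested.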

How the data were processed

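RNA of each liver was primed with oligo-dT, labelled with Cy3 and hybridised to a custom 1-colour Agilent rat array, per the labels' protocols. Per the file headers, the intensity of each spot comes from Agilent Feature Extraction 10.7.3.1, after background subtraction and spatial detrending. The table of processed log2 values that the authors deposited is uncentred, and its scaling is not given in the sources used here. It correlated at 0.999 or more with the scanner values of each array, brighter being higher, and served as an alternative. Its column medians were -3.10, -3.21, -3.14 and -3.17 for control replicates 1 to 4 and -3.14, -3.20, -3.16 and -3.20 for high-fat replicates 1 to 4.

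Control spots and outlier spots were left out, and none was saturated. Log2 signals were expressed against the 75th percentile, on the same array, of probes detected above background on all 8 arrays (47.9% of probes). Replicate spots were averaged. Probes detected on 4 or more arrays, 31535 in all, entered limma 3.58.1 under R 4.3.3 (lmFit, eBayes), and Benjamini-Hochberg adjustment ran over all of them. A gene stood for its brightest tested probe, 18587 in all, and levels are not comparable between probes. The fit was tested on simulated data.

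All 8 arrays lay on 1 slide, in 2 rows with 2 arrays of each diet, and were scanned on 1 day. Accessions of all 9 genes matched GRCr8 RefSeq, and promoter sequences are RefSeq's on that build. Probe positions are on rn4, with no exon annotation of that build used here.

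The 9 genes, the lists, alternatives and the naming rule were chosen with earlier results of these data known. The rule took every probe of the 9 genes, the 3 smallest p of each list with any that passed, the 6 nearest neighbours of the group's level and of Bst2, and a fixed set of pathway genes, of which Ifnar2 was not on the array under that name and another is not reported here. Alternatives changed background correction, scaling, filter, variance model, blocks, the summary per gene, and arrays left out.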

Additional observations from a re-analysis of the deposited data

Results flagged for a closer look

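High-fat replicate 1 lay far from the other high-fat arrays in 2 of the 70 sets of 4 values examined. Chance flags about 1 in 20 independent sets, for any of the 4 arrays. The sets examined share genes and arrays, so the 2 are a description and are not weighed against that rate. The first was the level of the 9 genes, 0.34 against -0.80 to -0.71. The second was the dimmer probe of Irf7, at -2.12 against -3.50 to -3.45. What sets this sample apart was not tested.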

How the results depend on the processing

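The level of the 9 genes stayed lower on the high-fat diet in all 19 alternatives run for it, between -1.26 and -0.69, and by -1.25 to -0.87 with 1 array left out. The filters, trend and robust variances and blocks leave it as it is by construction. Weights per array, under which the log2 change of Bst2 was -2.26, were not applied to this level. Numbers of calls moved more. For all genes, members and the pathway lists in turn, normexp gave 253, 1 and 5, probes detected on all 8 arrays 331, 1 and 6, and on at least 1 array 52, 0 and 0. No filter gave 5, 0 and 0, trend and robust variances 335 over all genes, and a threshold of 0.1 gave 504. The slide row block gave 98, 0 and 0, and leaving out the 2 dimmest arrays 14, 2 and 0. Leaving out 1 array gave 16 to 89, 0 to 5 and 0 to 4. The mean of all probes of a gene gave 0 members and 1 list gene. Whether replicate numbers pair the samples is not settled by the correlations of deviations (-0.12, 0.26, 0.23 and 0.01), since mismatched pairs are not given. With a replicate block 1 gene, 0 members and 0 list genes passed.

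Bst2 lost its call in 13 of the 23 alternatives with a test, with adjusted p from 0.0087 to 0.117 and log2 changes from -2.40 to -1.87. Mx1, Mx2 and Stat2 passed in none. Rsad2 had 0.091 by the mean of its probes and 0.12 within the first slide row, and the conventional dendritic cell median was 0.047 without the 2 dimmest arrays. Medians of lists that crossed 0 in some alternatives were those of neutrophil (-0.18 to 0.29), receptor (-0.26 to 0.034), hepatocyte (-0.13 to 0.023) and sensor genes (-0.23 to 0.0039). The causes were not tested. Depth is not defined for arrays, and 4 arrays a group and dim probes limit what could be called.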

Other observations

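The dimmest array of each diet had the highest level of the 9 genes in its group. Control replicate 1 was the highest control in 7 of the 9 genes, all but Oas1a and Usp18, and high-fat replicate 1 the highest high-fat array in 8. The shares of all tested genes with these orders are not given. Without both arrays the level of the group differed by -1.18 between the diets. Whether the share of probes above background bears on the level was not tested.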
